A study of Mus musculus with 61 samples.

Results

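Serum amyloid A and the acute phase proteins that rise with it in blood during inflammation were described in mouse liver, gene by gene and library by library. The members were 10 of the 18754 genes of the deposited table, taken by symbol: Saa1, Saa2, Saa3, Saa4, Orm1, Orm2, Orm3, Hp, Hpx and Lcn2. All 10 were expressed above the filter on low counts. The livers came from the 8 inbred founder strains of the Diversity Outbred stock, an outbred mouse population bred from them, and all mice had been fed a diet high in fat and sugar, given as 45% fat. The labels give a strain and a number to each sample, and no sex, age, fasting state or infection status. The 60 libraries analysed were made from polyadenylated RNA. They comprised 8 libraries each of strain-129, NOD, NZO, PWK and WSB, 7 each of B6 and Cast, and 6 of AJ, named below by strain and number. No strain served as a control, and there was no group on another diet. The design asks how the strains differ on a common diet, so each strain was set against the mean of the other 7. As background, Cast, PWK and WSB are wild-derived inbred strains, NZO is a strain with polygenic obesity and NOD is a strain prone to autoimmune diabetes.

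The acute phase response is the change in liver protein output that follows infection or tissue injury. Interleukin-6, interleukin-1 and tumour necrosis factor reach hepatocytes from activated macrophages, and STAT3, NF-kB and C/EBP factors then raise transcription of the acute phase genes. Serum amyloid A proteins 1 and 2 travel on high-density lipoprotein and are the most inducible of the family in mice, Saa3 is also made by macrophages and adipose tissue, and Saa4 is the constitutively made form. The orosomucoids (alpha-1-acid glycoproteins) bind lipids and drugs in plasma, haptoglobin (Hp) binds free haemoglobin, hemopexin (Hpx) binds heme, and lipocalin 2 (Lcn2) binds the iron carriers of bacteria and is also stored in neutrophil granules.

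The serum amyloid genes formed a cluster on chromosome 7 in the GRCm38 build. In the deposited gene table Saa3 lay at 46711998 to 46715676 on the minus strand, Saa4 at 46728017 to 46732543 on the minus strand, Saa1 at 46740499 to 46742980 on the minus strand and Saa2 at 46751833 to 46754314 on the plus strand. Saa1 and Saa2 thus faced away from each other, with their starts next to each other. Hpx was on the same chromosome, at 105591613 to 105600116 on the minus strand. The orosomucoid genes lay side by side on the plus strand of chromosome 4, Orm1 at 63344560 to 63348163, Orm3 at 63356162 to 63359511 and Orm2 at 63362449 to 63365878. Hp was on chromosome 8 at 109575130 to 109579172 and Lcn2 on chromosome 2 at 32384633 to 32388252, both on the minus strand.

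The upstream sequences of Saa1 and Saa2, and of Orm2 and Orm3, are printed because these neighbours are close copies whose levels are set against each other below. Each is the 250 bases before the gene's start in RefSeq, GRCm38.p6, written 5′ to 3′ along the gene, and capitals mark matches to the C/EBP motif TTNNGNAAT, all of which lay on the opposite strand.
Saa1, chr7:46742981-46743230, minus strand: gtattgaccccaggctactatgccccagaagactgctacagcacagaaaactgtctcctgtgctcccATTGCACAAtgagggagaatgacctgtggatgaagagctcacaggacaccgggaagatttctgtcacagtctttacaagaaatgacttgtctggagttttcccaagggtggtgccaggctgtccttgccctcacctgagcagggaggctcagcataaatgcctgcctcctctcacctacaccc
Saa2, chr7:46751583-46751832, plus strand: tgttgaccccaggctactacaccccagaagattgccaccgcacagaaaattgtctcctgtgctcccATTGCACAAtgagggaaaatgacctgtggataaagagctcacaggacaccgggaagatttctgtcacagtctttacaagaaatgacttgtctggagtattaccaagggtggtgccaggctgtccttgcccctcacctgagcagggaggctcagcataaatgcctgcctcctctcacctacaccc
Orm2, chr4:63362199-63362448, plus strand: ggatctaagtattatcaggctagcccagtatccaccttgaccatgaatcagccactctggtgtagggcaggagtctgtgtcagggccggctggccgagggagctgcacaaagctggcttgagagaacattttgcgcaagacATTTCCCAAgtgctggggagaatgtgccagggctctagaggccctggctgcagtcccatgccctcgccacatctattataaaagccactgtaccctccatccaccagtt
Orm3, chr4:63355908-63356157, plus strand: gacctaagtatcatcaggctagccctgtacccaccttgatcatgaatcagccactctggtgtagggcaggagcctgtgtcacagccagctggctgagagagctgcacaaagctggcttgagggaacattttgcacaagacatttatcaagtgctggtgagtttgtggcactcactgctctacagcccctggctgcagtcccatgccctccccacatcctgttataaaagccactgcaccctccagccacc

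The upstream stretches of Saa1 and Saa2 were 94.8% identical over 251 aligned columns, and those of Orm2 and Orm3 were 85.5% identical over 255 columns. The stretch of Saa1 shared 48.9% with that of Saa3. Of the 10 members, 8 had an entry in the promoter table, and Orm1 and Hp had none. On either strand the C/EBP motif was present in 3 of these 8, Saa1, Saa2 and Orm2, against 10.2% of all 32851 promoters of the same length. It ended 175 bases before the start in Saa1 and 176 bases before it in Saa2, both times with the same 9 letters ATTGCACAA. In Orm2 it lay 109 to 101 bases before the start, as ATTTCCCAA, and the printed stretch of Orm3 held no match. No match was present in the 8 windows for the NF-kB motif, GGG and TTTCC with any 2 bases between (1.41% of all promoters), TTCNNNGAA of STAT3 (7.02%), CTGGGAA of the interleukin-6 response element (9.1%) or the motif of the glucocorticoid receptor, GNACA and TGTNC with any 3 bases between (0.387%). These letters describe the genome of B6, on which the reference is built, and the sequences of the other 7 strains were not used here.

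The transcripts of the paralogs were also close. Those of Saa1 and Saa2 were 93.9% identical, 13.2% of the 50-base windows of Saa1 occurred unchanged in Saa2, and none of its 100-base windows did. Orm1 and Orm2 were 91.0% identical, with 20.4% of 50-base and 6.95% of 100-base windows shared, while Orm3 was 86.1% identical to Orm1 and 88.0% to Orm2. Levels of single genes within these pairs are therefore uncertain, since counting could split or discard shared reads. Whether sequence differences between a strain and the reference move the counts was not tested.

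Libraries held 19.98 to 69.17 M reads, with a median of 30.4 M. Hepatocyte markers summed to 47313 to 161709 CPM (counts per M reads after normalisation) over the 60 libraries, so every library was liver by that list. One library, NZO 8, stood apart. The summed level of 10 measured neutrophil markers, of 13 listed, was 2487 CPM in NZO 8 and 0.984 to 15.7 CPM in the other 59 libraries, and NZO 8 was the highest of the 60 for 10 of these 10. S100a9, a calcium-binding protein of neutrophils, reached 714 CPM there, Ngp (neutrophilic granule protein) 566 CPM and Elane (neutrophil elastase) 57.1 CPM. The sum of 14 Kupffer cell and macrophage markers was 1882 CPM in NZO 8, against 139 to 1073 CPM in the rest, and its hepatocyte sum of 47313 CPM was the lowest of all. Its depth of 29.8 M reads and its 18S ribosomal share of 7.23% lay within the range of the other libraries. The part of these cells in the results was not tested, and in bulk tissue fewer cells of a type cannot be told apart from less RNA per cell. Alb, Apoa1 and Ttr of the hepatocyte list are also listed below as negative acute phase proteins, and Fgb as a positive one. The hepatocyte sum can thus differ with the acute phase genes as well as with hepatocytes, and which of these the low sum reflects was not tested. The called fold changes of members in NZO are given with and without NZO 8, and other results where stated.

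Per kilobase of transcript, the median level over the 60 libraries was highest for Hpx, at 1834 CPM per kb, followed by Hp at 1577 and Orm1 at 412. Saa4 followed at 97.3 CPM per kb, Saa1 at 57.8 and Saa2 at 46.6, while Lcn2 was at 13.3, Orm2 at 10.7, Orm3 at 4.44 and Saa3 at 2.29. Hpx and Hp, which bind heme and haemoglobin, were thus the most abundant members, and Orm3 and Saa3 the scarcest.

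Of the 10 members, 5 were among the genes that varied most between libraries of 1 strain. The SD of log2 CPM within strains was 2.47 for Saa2, 2.28 for Saa1, 1.96 for Lcn2, 1.79 for Orm2 and 1.64 for Saa3, and each of these 5 lay at or above the 98.9th percentile of the 16165 genes tested, whose median SD was 0.333. Orm1 and Orm3 had SDs of 1.15 and 1.13, and Saa4, Hp and Hpx had the lowest, at 0.686, 0.597 and 0.471, which lay at percentiles 82.4, 75 and 64.1. The share of variance that lay between strains was 72.8% for Orm3, 71.3% for Orm1 and 61.5% for Saa4. It was 51% for Hpx, near the all-gene median of 49.3%. Less lay between strains for Orm2 (27.8%), Hp (26%), Lcn2 (25.4%), Saa2 (19.6%), Saa1 (12.1%) and Saa3 (11.6%). Most of the variance of Orm3, Orm1 and Saa4 thus lay between strains, and most of that of Saa1, Saa2, Saa3, Orm2, Lcn2 and Hp within them. Without NZO 8 the share between strains was 40.6% for Hp and 60.7% for Hpx, where the all-gene median was 50.4%. Their SDs within strains were then 0.455 and 0.372, and the shares of the other members moved less.

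**Figure D1:**
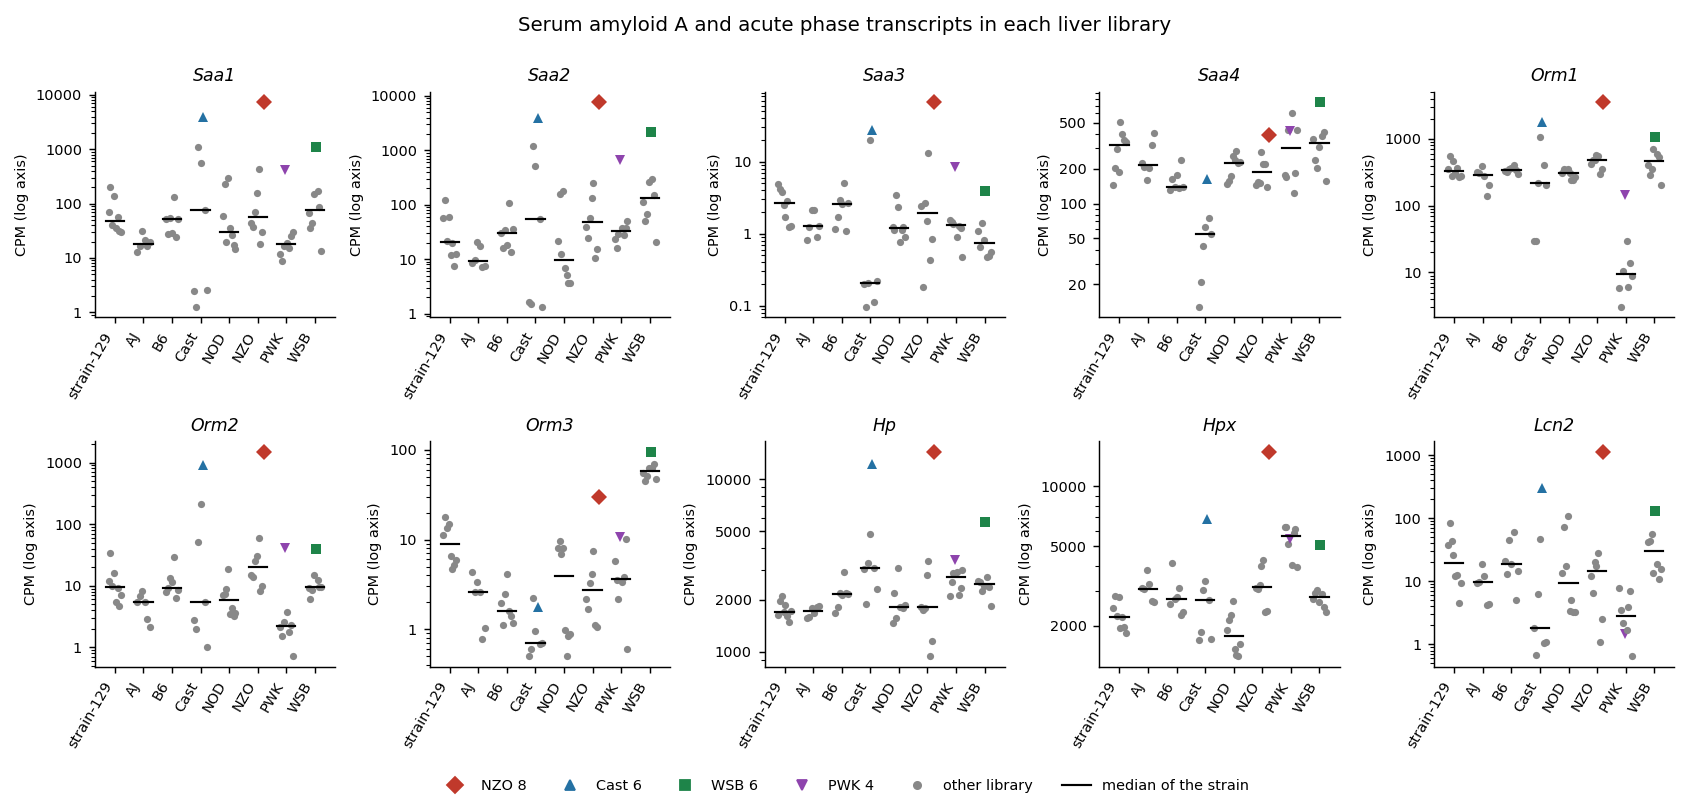
Level of each of the 10 members (CPM, log axis) in every library, by strain, with 1 point per library and a bar at the strain's median. The WSB points of Orm3 lie between 44.9 and 95.3 CPM, above every library of the other strains, and NZO 8 is the highest point for 8 of the 10 genes.

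All 10 members differed among the 8 strains by edgeR's quasi-likelihood test with Benjamini-Hochberg adjustment over all genes tested, which gave every adjusted p below unless another test is named. They did so with and without NZO 8, but 89.8% of all genes tested were also called, so the count says little about the members. Adjusted p-values ran from 2.05e-14 for Orm3 to 0.00143 for Hp, and that of Saa3 moved the most without NZO 8, to 0.0322.

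Set against the mean of the other 7 strains, taken on the log scale, the strains differed in how many members were called. Cast had 8 of 10 members called, 6 higher and 2 lower, where 59.6% of all genes were called, 30.8% higher and 28.8% lower. NZO had 8, all higher, where 46.1% of all genes were called and 26.7% higher. Without NZO 8, NZO had 0 of 10 called by edgeR, and also 0 at an unadjusted p under 0.05, with 43.1% of all genes still called. PWK had 4, with 2 higher and 2 lower, where 45.2% of all genes were called, 22.5% higher and 22.7% lower. WSB had 3, all higher, where 45% were called and 22.6% higher. AJ had 2, both lower, where 24.1% of all genes were called and 11% lower. In strain-129 there was 1 higher member (24.6% of all genes called, 13.7% higher), in B6 1 lower (34.1%, 14.7% lower) and in NOD 1 lower (28.3%, 11.6% lower). The shares in Cast and NZO stood above their backgrounds, and those in strain-129, AJ, B6, NOD, PWK and WSB were below theirs. Without NZO 8, 9 members were called in Cast (60.8% of all genes), 4 in WSB (46.2%) and 3 in strain-129 (25.7%). The 8 calls in Cast were not stable, since 3 of 10 were left without Cast 6, the library with the highest values of that strain, with 55.9% of all genes called.

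**Figure D2:**
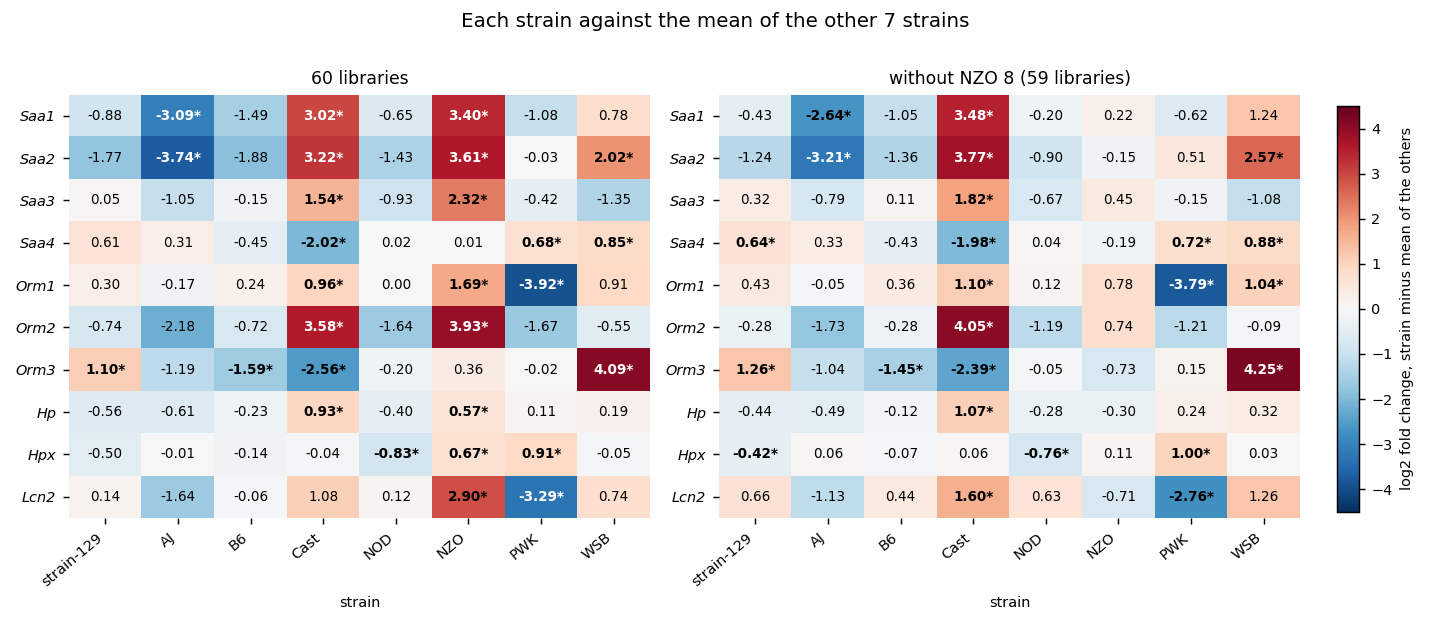
Heat maps of the log2 fold change of each member in each strain against the mean of the other 7 strains. They are given with all libraries and without NZO 8, with the value printed in each cell and an asterisk on called values. In NZO the Saa1 estimate is 3.40 with all libraries and 0.22 without NZO 8, while Orm3 in WSB stays at 4.09 and 4.25.

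Saa1 and Saa2, the inducible pair, were high in a few libraries and low in most. In Cast, Saa1 ranged from 1.25 to 3874 CPM with a median of 76.8, and its 7 libraries numbered 1, 2, 3, 5, 6, 7 and 8 held 2.50, 1.25, 1126, 571, 3874, 76.8 and 2.62 CPM. Saa2 was close to Saa1 in each, with 1.67, 1.51, 1224, 507, 3885, 54.4 and 1.33 CPM. Cast thus held both the lowest libraries of the 60 for these genes and, after NZO 8, the highest. Against the other strains the log2 fold change in Cast was 3.02 ± 0.68 (SE) for Saa1, with an adjusted p of 0.000138, and 3.22 ± 0.73 for Saa2, with an adjusted p of 0.000144. Without Cast 6 both calls ended, at 1.59 with an adjusted p of 0.0734 for Saa1 and at 1.80 with an adjusted p of 0.0583 for Saa2. On the deposited log2 values, limma gave 0.51 with an adjusted p of 0.616 for Saa1 in Cast.

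NZO had Saa1 at 17.95 to 7371 CPM, with a median of 58.0, and Saa2 at 10.45 to 7671 CPM, with a median of 48.45. The maximum was NZO 8 for both, and the next NZO library was at 442 CPM for Saa1 and 254 CPM for Saa2. The NZO fold change was 3.40 ± 0.64 on the log2 scale for Saa1, with an adjusted p of 1.56e-05, and 3.61 ± 0.69 for Saa2, with an adjusted p of 1.96e-05. Without NZO 8 these were 0.22 with an adjusted p of 0.831 and -0.15 with an adjusted p of 0.898.

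AJ livers had little of either, with Saa1 at 13.1 to 31.6 CPM (median 18.2) and Saa2 at 7.30 to 20.7 CPM (median 9.16). AJ also had the narrowest range, with a highest Saa1 library only 2.41 times its lowest, but its values overlapped those of every other strain. Saa1 was lower in AJ by a log2 fold change of -3.09 ± 1.19 with an adjusted p of 0.0494, and Saa2 by -3.74 ± 1.35 with an adjusted p of 0.0357. Both calls were marginal, since that of Saa1 ended in 37 of the 60 fits that leave out a library, with adjusted p up to 0.0973, and that of Saa2 ended without any of the 6 AJ libraries, with adjusted p up to 0.0727.

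In WSB, Saa2 ranged from 20.3 to 2167 CPM with a median of 132.4, the highest median of the 8 strains, and Saa1 from 13.25 to 1093 CPM with a median of 76.5. Saa2 was higher in WSB by 2.02 ± 0.75 on the log2 scale, with an adjusted p of 0.0229, and this call ended without WSB 6, at 0.53 with an adjusted p of 0.654. The other strains had median Saa1 levels of 51.7 CPM in B6, 48.8 in strain-129, 30.7 in NOD and 18.05 in PWK. Of all 28 pairs of strains, in which 14.4% to 59% of all genes were called, 11 were called for Saa1 and 12 for Saa2, and without NZO 8 7 for Saa1 and 11 for Saa2. No neighbouring strains in the order of mean levels were called for either gene, with or without NZO 8.

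Saa3, the form also made by macrophages and fat cells, was scarce throughout. NZO held 0.184 to 66.7 CPM with a median of 1.96, and 13.2 CPM was its maximum without NZO 8. Cast held 0.0965 to 27.1 CPM with a median of 0.209, the lowest median of the strains, because 5 of its 7 libraries were at or below 0.221 CPM and Cast 5 and Cast 6 were at 19.7 and 27.1 CPM. Medians elsewhere ran from 0.740 CPM in WSB to 2.69 CPM in strain-129. Saa3 was called higher in NZO, by 2.32 ± 0.51 on the log2 scale with an adjusted p of 0.000185, and at 0.45 with an adjusted p of 0.549 without NZO 8. It was called higher in Cast as well, by 1.54 ± 0.57 with an adjusted p of 0.0177, although its median was the lowest of the strains. That call rested on Cast 5 and Cast 6: without Cast 5 it was 0.99 with an adjusted p of 0.181, without Cast 6 it was 0.58 with an adjusted p of 0.464, and limma on the deposited log2 values gave -0.084 with an adjusted p of 0.874.

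Saa4, the constitutive form, was low in Cast, and most of its variance lay between strains, although it varied within strains as well. Cast livers held 12.8 to 163.7 CPM with a median of 55.0, and the other strains had medians of 139.9 CPM in B6, 186 in NZO, 214.7 in AJ, 226 in NOD, 303.7 in PWK, 320.7 in strain-129 and 334 in WSB. In 6 of the 7 Cast libraries Saa4 was at or below 74.6 CPM, under the 122.7 CPM of the lowest library of any other strain, and only Cast 6 overlapped the others. Saa4 was lower in Cast by a log2 fold change of -2.02 ± 0.32 with an adjusted p of 2.45e-07, which ranged from -2.47 to -1.84 over all 60 leave-outs. All 7 pairs of Cast with another strain were called, including that with the next strain in order, at 61.84 ± 50.04 CPM in Cast and 160.3 ± 37.2 CPM in B6 (SD, n = 7 each). Saa4 was higher in WSB by 0.85 ± 0.23 with an adjusted p of 0.00249, and in PWK by 0.68 ± 0.24 with an adjusted p of 0.0151, the PWK call ending without PWK 5 at 0.49 with an adjusted p of 0.110. In Cast, then, the constitutive gene was low in nearly all livers in which the inducible genes of the same cluster spanned their widest fold range of the 8 strains, 3090-fold from lowest to highest for Saa1.

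Orm1, the most abundant orosomucoid, was low in PWK. It ranged from 3.04 to 145.7 CPM in PWK, with a median of 9.57, and from 29.55 to 3557 CPM in the other 52 libraries. PWK 4 alone exceeded 29.8 CPM in that strain, and medians elsewhere lay between 222 CPM in Cast and 488 CPM in NZO. The PWK fold change was -3.92 ± 0.59 on the log2 scale with an adjusted p of 1.41e-07, between -5.25 and -3.74 over the leave-outs, and all 7 pairs with PWK were called, PWK being the lower strain in each, at differences of 3.28 to 4.91 on the log2 scale. Orm1 was also called higher in NZO, by 1.69 ± 0.38 with an adjusted p of 0.000214, and at 0.78 with an adjusted p of 0.105 without NZO 8. In Cast it was called higher by 0.96 ± 0.42 with an adjusted p of 0.0458, a call that ended without any 1 of 5 libraries (Cast 5, Cast 6, NZO 1, NZO 6 or NZO 7) and was 0.26 with an adjusted p of 0.657 without Cast 6. In WSB the value was 0.91 with an adjusted p of 0.0593, and 1.04 with an adjusted p of 0.0165 without NZO 8.

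Orm2 behaved like Saa1 and Saa2. Cast held 0.995 to 899 CPM with a median of 5.47, and its libraries in the order above held 2.80, 1.96, 51.8, 215.6, 899, 5.47 and 0.995 CPM. NZO held 8.19 to 1501 CPM with a median of 20.2, and at most 58.7 CPM without NZO 8. Medians of the other strains lay between 2.22 CPM in PWK and 9.51 CPM in WSB, and 4 Cast livers were within the range of their libraries and 3 above it. Orm2 was higher in Cast by 3.58 ± 0.56 on the log2 scale with an adjusted p of 2.91e-07, and still called without Cast 6, at 1.75 with an adjusted p of 0.0155, but limma on the deposited log2 values gave an adjusted p of 0.134. In NZO it was higher by 3.93 ± 0.54 with an adjusted p of 2.39e-08, and at 0.74 with an adjusted p of 0.310 without NZO 8. In order of mean level, Cast at 168 ± 332 CPM (SD, n = 7) stood above WSB at 13.75 CPM by 3.61 on the log2 scale, with an adjusted p of 0.00262. Without NZO 8 the next strain was NZO, at a difference of 2.90 with an adjusted p of 0.00343.

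Orm3 gave the clearest strain difference of the members, in WSB. Its 8 WSB libraries held 44.9 to 95.3 CPM with a median of 58.55, against at most 29.9 CPM in the other 52, that value being NZO 8 and the next 17.7 CPM in strain-129 2. No WSB library overlapped any other. The WSB fold change was 4.09 ± 0.31 on the log2 scale with an adjusted p of 1.36e-16, and it stayed between 3.98 and 4.25 over the 60 leave-outs. All 7 pairs with WSB were called, WSB being the higher strain in each, with differences from 2.62 against strain-129 to 5.82 against Cast, the strain with the lowest mean.

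Below WSB, Orm3 was ordered by strain as well. Strain-129 held 4.67 to 17.7 CPM (median 8.95), NOD 0.503 to 9.65 (3.91), PWK 0.611 to 10.7 (3.66), NZO 1.06 to 29.9 (2.73), AJ 0.783 to 4.38 (2.63), B6 1.11 to 4.10 (1.60) and Cast 0.499 to 2.21 (0.700). Orm3 was lower in Cast by -2.56 ± 0.55 on the log2 scale, with an adjusted p of 6.91e-05, and lower in B6 by -1.59 ± 0.50, with an adjusted p of 0.0111. It was higher in strain-129 by 1.10 ± 0.37 with an adjusted p of 0.0221, a call that ended without strain-129 2, 3 or 4, with adjusted p up to 0.0782. In the neighbouring genes of chromosome 4, then, a different strain stood apart for Orm1 (PWK, low) and for Orm3 (WSB, high), and single livers stood apart for Orm2.

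Haptoglobin was abundant in all livers and varied less than the members above. Cast held 1891 to 12283 CPM with a median of 3053, the highest median of the strains, and NZO held 942 to 14460 CPM with a median of 1814. The other strains had medians between 1714 CPM in strain-129 and 2706 CPM in PWK, and their libraries overlapped those of Cast and NZO. Hp was higher in Cast by 0.93 ± 0.24 on the log2 scale with an adjusted p of 0.00084, and at 0.44 with an adjusted p of 0.123 without Cast 6, whereas limma on the deposited log2 values gave 0.77 with an adjusted p of 0.00384. In NZO it was called at 0.57 ± 0.24 with an adjusted p of 0.0440, which became -0.30 with an adjusted p of 0.218 without NZO 8. Besides that fit, the call ended in 39 others of the 60 leave-outs.

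Hemopexin was highest in PWK and lowest in NOD by the median. PWK held 3947 to 6289 CPM with a median of 5635, and NOD held 1402 to 2655 CPM with a median of 1768. The other strains had medians from 2223 CPM in strain-129 to 3128 CPM in NZO, and PWK and NOD did not overlap each other. PWK overlapped libraries of B6, Cast, NZO and WSB, and NOD overlapped those of each strain but PWK. Hpx was higher in PWK by 0.91 ± 0.18 on the log2 scale with an adjusted p of 2.65e-05, between 0.88 and 1.00 over the leave-outs. It was lower in NOD by -0.83 ± 0.21 with an adjusted p of 0.00136. Of the 7 pairs with PWK 6 were called, that with NZO not (adjusted p 0.515), and of the 7 pairs with NOD 4 were called, those with strain-129 (0.508), AJ (0.0606) and B6 (0.0853) not. In NZO it was called higher by 0.67 ± 0.18 with an adjusted p of 0.00198, and stood at 0.11 with an adjusted p of 0.596 without NZO 8, the library that reached 14952 CPM.

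Lipocalin 2 was lower in PWK, at 0.645 to 7.89 CPM with a median of 2.87. Cast had an even lower median of 1.80 CPM but ranged up to 297 CPM, and the other strains had medians from 9.40 CPM in NOD to 30.7 CPM in WSB. PWK overlapped every strain but WSB, whose lowest library was at 10.9 CPM. The PWK fold change was -3.29 ± 0.98 on the log2 scale with an adjusted p of 0.00465, and -3.55 to -2.76 over the leave-outs. In NZO, Lcn2 ranged from 1.08 to 1140 CPM. Its value there was 2.90 ± 0.60 with an adjusted p of 7.42e-05 with all libraries, and -0.71 with an adjusted p of 0.434 without NZO 8. In Cast it was 1.08 with an adjusted p of 0.194, and 1.60 with an adjusted p of 0.0141 without NZO 8, but -1.30 with an adjusted p of 0.210 without Cast 6.

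The high values fell in the same few livers. NZO 8 was the highest of the 60 libraries for 8 of 10 members, Saa4 and Orm3 being highest in WSB 6, and the highest for 10.1% of all genes. It was above every other NZO library for 10 of 10 members, where the same held for 28.7% of all genes. Over the median of the other 7 NZO libraries it held 197 times as much Saa2, 167 times as much Saa1, 100 times as much Orm2, 92.5 times as much Lcn2 and 43.7 times as much Saa3. The factors were 13.8 for Orm3, 8.02 for Hp, 7.3 for Orm1, 4.86 for Hpx and 2.52 for Saa4. Together the 10 genes took 5.43% of the reads of NZO 8, 3.05% in Cast 6, 1.44% in WSB 6 and 1.07% in PWK 4, and as little as 0.359% elsewhere.

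Cast 6, WSB 6 and PWK 4 were high in most members, as NZO 8 was, at far lower levels of the neutrophil markers. PWK 4 was not high in Lcn2 (1.46 CPM, PWK median 2.87) or Hpx (5436 CPM, PWK median 5635). Cast 6 was above the other Cast libraries for 9 of 10 members (13.9% of all genes), WSB 6 above the other WSB libraries for 10 of 10 (13.4%), PWK 4 above the other PWK libraries for 7 of 10 (12% of all genes), strain-129 2 above the others of its strain for 7 of 10 (12.2%) and B6 6 above the other B6 libraries for 7 of 10 (14.4%). The median member lay above the mean of its strain's other libraries by 4.67 in Cast 6, 4.55 in NZO 8, 3.09 in Cast 5, 2.27 in PWK 4 and 1.73 in WSB 6 on the log2 scale. The sum of the neutrophil markers was 15.7 CPM in Cast 6, 12.4 CPM in WSB 6 and at most 4.72 CPM in any PWK library, against 2487 CPM in NZO 8. Cast 6 and WSB 6 nevertheless had the highest sums of their strains, whose medians were 4.27 CPM in Cast and 3.05 CPM in WSB. In Cast 6 S100a8 was at 3.78 CPM, S100a9 at 5.15, Ngp at 0.362 and Elane at 0.0518, beside Saa1 at 3874 CPM. The part of neutrophils in these livers was not tested.

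Within the paralog pairs the ratio of the genes differed between strains, also where the levels did not. The log2 ratio of Saa2 to Saa1 was above 0 in every PWK library (0.578 to 1.04) and every WSB library (0.55 to 0.987). In PWK it averaged 0.82 ± 0.15 (SD, n = 8), against -0.60 in the other strains, with an adjusted permutation p of 0.00016, two-sided and adjusted over 32 tests of 4 ratios in 8 strains. WSB averaged 0.74 ± 0.14 against -0.59 in the other strains, with an adjusted permutation p of 0.00026. NOD lay on the other side, at -1.55 ± 0.80 against -0.23 in the other strains (adjusted permutation p 0.00027), and so did strain-129, at -1.20 ± 0.54 against -0.29 (adjusted permutation p 0.024). In both comparisons the other strains included PWK and WSB. Neither strain was uniform, and the ratio split with Xist, described below. It was -1.44 to -0.55 in NOD 1 to 4 (high Xist) and -2.36 to -2.0 in NOD 5 to 8 (low Xist). In strain-129 it was -1.17 to -0.328 in libraries 1 to 4 (high Xist) and -2.07 to -1.29 in 6 to 9 (low Xist). The SD of this ratio within PWK and WSB was small beside the 2.28 and 2.47 of the genes themselves. Since reads of Saa1 and Saa2 can be split or lost in counting, and the reference is the genome of B6, a difference in mapping between strains cannot be told apart from one in expression here.

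The orosomucoid ratios set PWK and WSB apart too. Orm2 over Orm1 was -2.16 ± 0.85 on the log2 scale in PWK (SD, n = 8), against -4.97 in the other strains, with an adjusted permutation p of 0.00016. Orm3 over Orm1 was -1.74 ± 1.71 in PWK and -2.96 ± 0.46 in WSB, each set against its own remaining strains at -6.38 and -6.19, with adjusted permutation p-values of 0.00016 and 0.002. It was -7.95 ± 1.92 in Cast against -5.47 in the other strains, with an adjusted permutation p of 0.036. Hpx over Hp, whose genes are not paralogs, was below 0 in every Cast library and averaged -0.42 ± 0.33 there (SD, n = 7), against 0.47 in the other strains (adjusted permutation p 0.00016). It averaged 1.01 ± 0.47 in PWK against 0.27 (adjusted permutation p 0.00059) and -0.06 ± 0.34 in NOD against 0.44 (adjusted permutation p 0.044). All of these calls held without NZO 8.

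**Figure D3:**
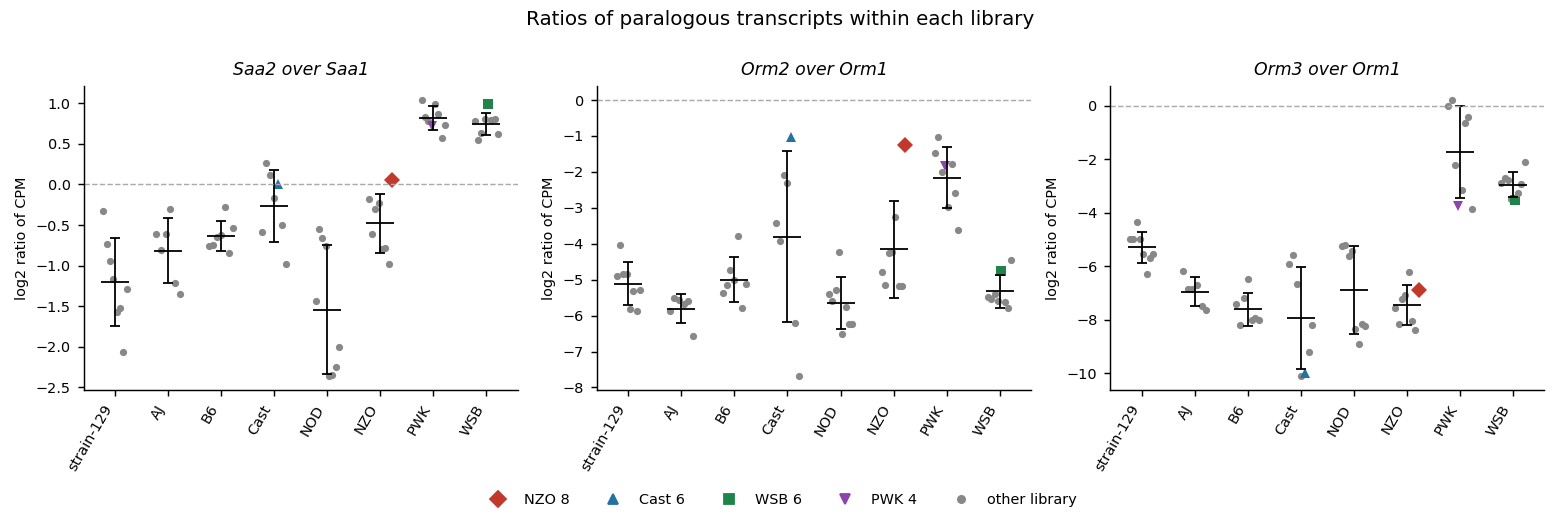
Log2 ratio of Saa2 to Saa1, Orm2 to Orm1 and Orm3 to Orm1 in every library, by strain, with a bar at the strain's mean. The PWK and WSB points for Saa2 over Saa1 all lie above 0, from 0.55 to 1.04.

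Within strains the members moved together, Saa4 the least. Deviations of log2 CPM from the strain's mean were correlated over the 60 libraries for each of the 45 pairs of members, with p from 100000 permutations adjusted over the pairs. The closest pair was Saa1 and Saa2, with Pearson's r of 0.987 and Spearman's rho of 0.966, and r was 0.984 without NZO 8 and 0.982 without the 2 libraries farthest from the median. Saa2 and Orm2 followed at r of 0.904 and rho of 0.851, Saa1 and Orm2 at 0.899 and 0.783, and Hpx and Lcn2 at 0.876 and 0.829. Of the 45 pairs, 41 had an adjusted permutation p of r under 0.05, and 40 without NZO 8, where 36 had an adjusted permutation p of rho under 0.05. The share of such pairs among all genes was not counted, so these counts do not set the members apart from other genes. The 4 pairs that missed the threshold all included Saa4. Saa4 with Orm3 had r of -0.0113 and rho of -0.125 with an adjusted permutation p of 0.927, and Saa4 with Lcn2 had r of 0.156 and rho of -0.17 with an adjusted permutation p of 0.372. Saa4 with Hpx and Saa4 with Saa3 had r of 0.301 and 0.345, with adjusted permutation p-values of 0.0589 and 0.0611. These values are pooled over the strains and rest in part on the few high livers, as the smaller rho of several pairs shows, such as 0.434 beside r of 0.823 for Hp and Hpx. The libraries share strain means and normalisation, and the labels give no batch within which to repeat them.

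**Figure D4:**
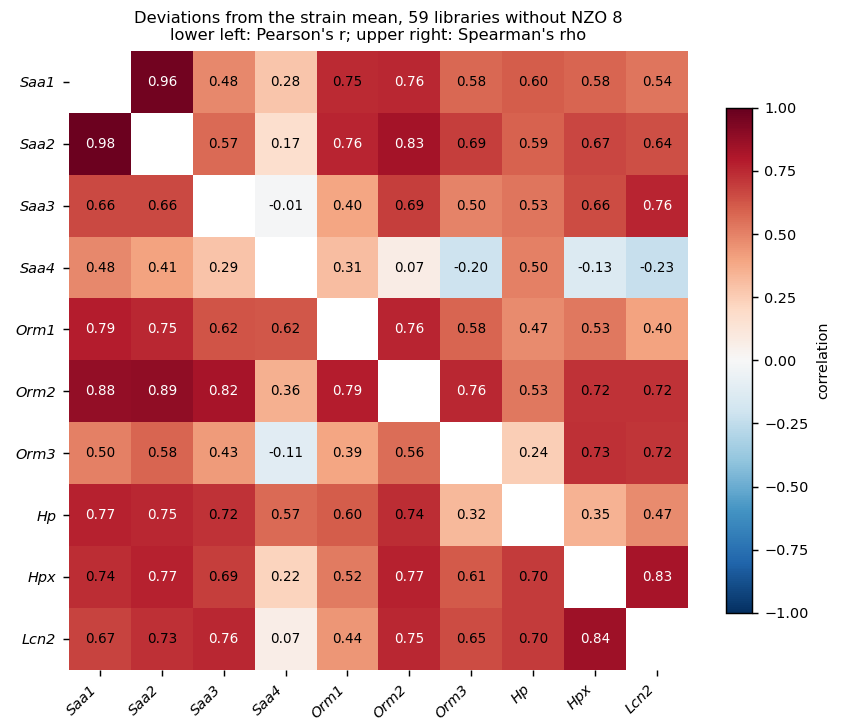
Correlations of within-strain deviations of log2 CPM for each pair of members, over the 59 libraries without NZO 8. Pearson's r is at the lower left and Spearman's rho at the upper right. Saa1 and Saa2 have r of 0.984 there, and Saa4 and Orm3 have r of -0.11.

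Saa4 also varied within strains with Xist, the non-coding RNA that silences 1 X chromosome in female cells. Xist was at 645.6 to 1421 CPM in 31 libraries and at 0.193 to 8.90 CPM in 29, and each strain held some of each. With log2 CPM of Xist as a covariate beside strain, its coefficient was called for 34.9% of all genes and for 3 of the 10 members, Saa4, Orm1 and Hp. For Saa4 it was -0.0900 ± 0.0143 per log2 unit of Xist with an adjusted p of 1.3e-06, and -0.0872 with an adjusted p of 3.14e-06 without NZO 8. For Orm1 it was -0.0874 with an adjusted p of 0.0351, and for Hp -0.0467 with an adjusted p of 0.0321, and both calls ended without NZO 8, at adjusted p-values of 0.137 and 0.142. Orm3 had 0.0467 with an adjusted p of 0.266, and 0.0724 with an adjusted p of 0.0209 without NZO 8, when 39.1% of all genes were called.

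Side by side, Saa4 in PWK was at 122.7 to 185 CPM in the 4 libraries with Xist of 852 to 1292 CPM, and at 422 to 609 CPM in the 4 with Xist of 1.83 to 8.90 CPM. In strain-129 it was at 145 to 298 CPM in the libraries of high Xist and at 343 to 506 CPM in those of low Xist. In 4 of the 8 strains, strain-129, AJ, Cast and PWK, no library of high Xist reached the Saa4 level of any library of low Xist, and in the other 4 they overlapped. Orm3 ran the other way in NOD, at 6.86 to 9.65 CPM where Xist was 1057 to 1307 CPM and at 0.503 to 0.971 CPM where it was 0.868 to 4.06 CPM, and also in strain-129 and AJ. In WSB it was at 44.9 to 54.75 CPM in the libraries of high Xist and at 62.4 to 95.3 CPM in those of low Xist, the reverse of those 3 strains. Lcn2 and Hpx were each higher in all libraries of high Xist than in any of low Xist in 4 of the 8 strains, the same 4 for both genes (strain-129, AJ, NOD and PWK). Their Xist coefficients were not called, at adjusted p-values of 0.76 for Lcn2 and 0.946 for Hpx, and 0.162 and 0.282 without NZO 8. Saa2 and Orm2 were likewise all higher in 3 strains and all lower in 1, WSB. The groups held 2 to 4 libraries. The share of all genes separated in this way was not counted, so these counts do not set the members apart from other genes. Lcn2 in NOD was at 13.7 to 109 CPM in the libraries of high Xist and at 3.27 to 5.12 CPM in those of low Xist.

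**Figure D5:**
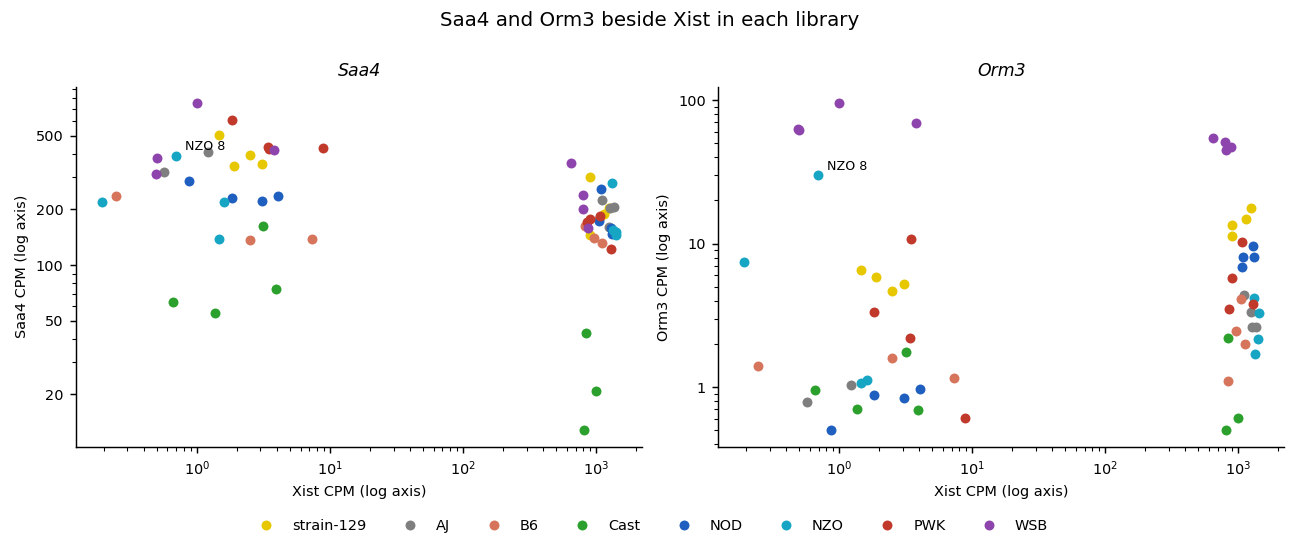
Levels of Saa4 and Orm3 (CPM, log axis) against Xist (CPM, log axis) in every library, coloured by strain. In PWK the Saa4 points are at 122.7 to 185 CPM at high Xist and at 422 to 609 CPM at low Xist.

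The rest of the acute phase programme was read from 4 lists. Their counts stand beside the shares of all genes called, which were 89.8% among the strains, 59.6% in Cast, 46.1% in NZO (43.1% without NZO 8) and 45% in WSB. Of 26 other positive acute phase genes, 25 differed among the strains and 24 without NZO 8. In Cast 14 were higher and 4 lower, with a median log2 fold change of 0.67 where that of all genes was -0.00178, and without Cast 6 the counts were 6 higher and 4 lower, with a median of 0.322. In NZO 11 were higher and 3 lower, with a median of 0.339, and without NZO 8 the counts were 5 higher and 8 lower, with a median of -0.155. In WSB 8 were higher and 2 lower, with a median of 0.13. In Cast the count of higher genes fell without Cast 6, while in NZO the number called was 14 with NZO 8 and 13 without it and mainly the direction differed. With all libraries the share called among strains, in NZO and in Cast was above that of all genes, and in WSB below it. Without Cast 6, 10 of the 26 were called in Cast, a share below the 55.9% of all genes, and 21 among strains.

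Genes of that list with the smallest p among the strains were Serpina3k, A2m, Slpi and Serpina3m, with adjusted p-values from 1.55e-14 to 1.86e-11. A2m, the protease inhibitor alpha-2-macroglobulin, was at 210.1 CPM in NZO 8 and at 0.480 CPM or less in every other library, so that its NZO log2 fold change of 7.70, with an adjusted p of 6.79e-17, became 0.13 with an adjusted p of 0.854 without that library. Slpi, an inhibitor of leukocyte proteases, was higher in NZO with that library and without it, at 2.985 ± 0.267 with an adjusted p of 6.68e-14 and at 2.42 with an adjusted p of 6.88e-11. In Cast the largest called changes were those of the metallothioneins Mt1, at 2.25 ± 0.50 with an adjusted p of 0.000135, and Mt2, at 1.99 ± 0.57 with an adjusted p of 0.00253, and of Serpina3m, at 1.81 ± 0.24 with an adjusted p of 5.15e-09. NZO 8 was the highest of the 60 libraries for 13 of the 26, among them Lrg1 at 1267 CPM and Apcs (serum amyloid P) at 1055 CPM. Cast 6 was the highest for others, with Fga (fibrinogen alpha) at 18203 CPM and Serpina3n at 6268 CPM.

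Negative acute phase proteins fall in blood during inflammation, and 11 of 12 differed among the strains. In NZO 7 were called, all lower, and without NZO 8 the counts were 1 higher and 6 lower. Apoa1, the main protein of high-density lipoprotein, was lower in NZO by -0.94 ± 0.12 on the log2 scale with an adjusted p of 4.01e-09, and by -0.96 without NZO 8. Igfals, the carrier of insulin-like growth factors, was at -0.92 with an adjusted p of 0.00589, and Fetub (fetuin B) at -0.72 with an adjusted p of 1.26e-05. Without NZO 8 Igfals stood at -0.92 and Fetub at -0.999, both still called. In Cast 2 were higher and 4 lower, with Apoa2 at -0.90 and Ttr (transthyretin) at -0.83, adjusted p-values of 1.79e-09 and 8.55e-06, and Fetub at 0.98 with an adjusted p of 9.69e-10. In WSB 8 were called, all higher. The 11 of 12 called among strains are close to the share of all genes. The smallest p among strains belonged to Fetub, F12, Apoa2, Apoa1 and Ttr, with adjusted p-values from 2.21e-18 to 1.47e-06.

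Of the 38 genes of cytokine signalling, 35 were tested and 31 differed among strains, near the 89.8% of all genes, and the shares called in Cast and NZO were below those of all genes. Il6 itself was at or below 0.505 CPM in all libraries and at 0.158 CPM in NZO 8. In Cast 13 were higher and 6 lower, and 12 and 5 without Cast 6, among them Socs3, the feedback inhibitor of STAT3 signalling, at 1.40 ± 0.33 with an adjusted p of 0.000271, and Cebpd, a C/EBP factor of the acute phase, at 1.16 ± 0.24 with an adjusted p of 3.64e-05. Il1b, which encodes interleukin-1 beta, was lower in Cast by -2.61 ± 0.37 with an adjusted p of 2.16e-08. In NZO 6 were higher and 9 lower, and 4 and 11 without NZO 8, with Tnf at 1.94 ± 0.40 and an adjusted p of 6.66e-05, Il1b at 1.57 ± 0.24 and 1.87e-07, and Socs2 at -1.53 ± 0.57 and 0.024. These 3 stayed called without NZO 8, at 1.61, 1.49 and -1.56. Tnfrsf1a, Irak4, Il1b, Il6st and Hnf4a had the smallest p among strains, with adjusted p-values from 1.01e-14 to 9.02e-09. Il1b thus stood lower in Cast and higher in NZO, while Saa1 in both strains was called higher only with the single high livers included.

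Of the receptors and partners of the members' proteins, 20 of 21 were tested and 19 differed among strains, and the share called in Cast was near that of all genes. In NZO 8 were higher and 4 lower, and 7 and 5 without NZO 8. Fpr2, a formyl peptide receptor that binds serum amyloid A, was higher in NZO by 2.67 ± 0.33 on the log2 scale with an adjusted p of 1.46e-09, and by 1.54 without NZO 8, and Fpr1 by 1.76 ± 0.25 with an adjusted p of 5.82e-08. Cd36, a scavenger receptor, was higher in NZO by 1.80 ± 0.31 with an adjusted p of 3.18e-06. Without NZO 8 Fpr1 stood at 1.255 and Cd36 at 1.87, both still called. In Cast 4 were higher and 8 lower. P2rx7, an ATP receptor, and Lrp2, the endocytic receptor megalin, were higher in Cast, by 1.91 ± 0.16 and 1.39 ± 0.45 with adjusted p-values of 1.68e-15 and 0.00668. Genes with the smallest p among strains were P2rx7, Lrp2, Scarb1 and Fpr1. Kupffer cell markers moved beside these lists, with 12 of 14 called in NZO, all higher, with and without NZO 8, and with 1 higher and 12 lower in Cast. In B6 14 of 14 were higher, where 1 member was called, lower, and the other positive acute phase genes had 4 higher and 4 lower. Their summed level was 317 to 1882 CPM in NZO, at most 907.6 CPM without NZO 8, 139.3 to 336.5 CPM in Cast and 402.6 to 1073 CPM in B6. Their part in these lists was not tested.

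For each member the genes most like it were taken by Pearson's r of within-strain deviations over 59 libraries, without NZO 8, among 12556 genes outside the members, as a description. Lrg1, a glycoprotein of the acute phase, was among the closest 3 genes for Saa1 (0.757), Saa2 (0.697), Orm1 (0.77) and Hp (0.785). Isyna1, an enzyme of inositol synthesis, was among them for Saa1 (0.742), Saa2 (0.735), Saa3 (0.76) and Orm2 (0.782), and Serpina10 for Saa1 (0.681), Saa2 (0.675) and Hpx (0.831). Apcs was the closest gene to both Lcn2 (0.875) and Hpx (0.835). Lcn2 was next to Il1rn (0.813) and Slc37a1 (0.803), and Hp also to Serpina3n (0.772) and Ptpn1 (0.772). Saa4 had other companions, C4bp (0.783), Klhl2 (0.781) and Sil1 (0.756), and so did Orm3, Prg4 (0.741), Aif1 (0.719) and Tapbp (0.708). Orm1 was closest to Traf3 (0.772), with Nucb2 at 0.767. The remaining companions were Actr3 (0.757) and Eif6 (0.739) for Saa3, Arhgdia (0.735) and Fndc3b (0.718) for Orm2, and Prg4 (0.797) for Hpx.

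By the means of the 8 strains, which are only 8 points, the closest gene was Dnaja1 for Orm3 (0.977), Tmem184c for Saa1 (0.948), Dnajc18 for Saa2 (0.952), Bcar3 for Saa3 (0.973) and 1300017J02Rik for Saa4 (0.985). For Orm1 it was 2210408F21Rik (0.986), for Orm2 Cyb5r4 (0.954), for Hp Zc3h13 (0.975), for Hpx Pakap (0.96) and for Lcn2 Ly96 (0.959). The closest genes by strain mean were in no case among those closest within strains.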

How the data were processed

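Liver polyA RNA of 8 strains was measured. The authors deposited estimated counts per gene, not normalised, and log2 values from a variance-stabilising transformation, per the file headers. Of the estimated counts 21% were not whole, and they were rounded before testing, where the design had assumed counts. The build was GRCm38 and DESeq2 was used, per the submitters' processing notes, and no aligner, counting tool, strand setting or version is given in the sources used here. The sample B6 5 had no column, and 1 column matching no sample was not used.

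The strain whose label is a number is written strain-129. Counts were tested in R 4.3.3 with edgeR 4.0.16 (TMM normalisation, filterByExpr by strain, quasi-likelihood F test with Benjamini-Hochberg adjustment over 16165 genes, threshold 0.05), with strain as the factor. SEs are the fold change divided by the root of F. The mean of the other 7 strains was unweighted and on the log scale, so 1 low strain raises the rest. Log2 CPM used a prior count of 2. Libraries of a strain differed by far more than counting noise (chi-square per gene of 17.3 or more), and counting error is all that read depth describes. The labels do not say that each library is a separate mouse, so p-values measure the spread between libraries, which may be technical. Ratios and correlations used 100000 permutations (scipy 1.17.1, numpy 2.4.6, Python 3.11.15), two-sided. Identities came from Biopython 1.88, transcript lengths and sequences from GENCODE M21, and figures from matplotlib 3.10.9. The models were tested on simulated data.

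Alternatives were RLE size factors, no filter, limma 3.58.1 on the deposited log2 values, DESeq2 1.42.0, Xist as a covariate, a replicate block and leaving out each library. Members, lists and marker lists were chosen with earlier results of these data known. Motifs, ratios, ranges by Xist, robust estimation and Xist without NZO 8 were chosen after seeing the data. Named genes were all members, the 5 of each list with the smallest p among strains, up to 3 called genes with the largest change in NZO and in strains with at least 5 members called, and the 3 genes most like each member. Some genes that this rule names are not reported here. Library levels of S100a8, S100a9, Ngp, Elane, Il6, Lrg1, Apcs, Fga and Serpina3n were named after their values were seen.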

Additional observations from a re-analysis of the deposited data

Results flagged for a closer look

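In each strain the highest and lowest library of every member were compared with the rest of that strain by Dixon's criterion, in 80 groups of 6 to 8 libraries, and 37 groups held a library that stood apart, always on the high side. Chance gives about 1 in 20 groups for normally distributed values. The criterion was applied to CPM on the linear scale, on which these genes are skewed towards high values, so this rate does not hold here and the high side is favoured by the scale. Most of the 37 fell in a few libraries.

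NZO 8 stood apart for Saa1 at 7371 CPM, Saa2 at 7671, Saa3 at 66.7, Orm1 at 3557, Orm2 at 1501, Orm3 at 29.9, Hp at 14460, Hpx at 14952 and Lcn2 at 1140 CPM. Its neutrophil marker sum of 2487 CPM is given beside these values, and its part in them was not tested.

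Cast 6 stood apart for Saa1 at 3874 CPM, Saa2 at 3885, Saa4 at 163.7, Orm2 at 899.4, Hp at 12283, Hpx at 6891 and Lcn2 at 296.9 CPM, with a neutrophil marker sum of 15.7 CPM.

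WSB 6 stood apart for Saa1 at 1093 CPM, Saa2 at 2167, Saa3 at 3.954, Saa4 at 750.5, Orm2 at 39.95, Hp at 5622, Hpx at 5074 and Lcn2 at 129.1 CPM. PWK 4 did so for Saa1 at 413 CPM, Saa2 at 678, Saa3 at 8.366, Orm1 at 145.7 and Orm2 at 40.8 CPM.

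B6 6 stood apart for Saa1 at 130.2 CPM, Saa2 at 107.4, Orm2 at 29.8 and Hp at 2908 CPM. The remaining libraries were strain-129 2, for Saa2 at 123.5 CPM and Orm2 at 34.2 CPM, and NOD 4, for Orm2 at 18.5 CPM and Hp at 3065 CPM.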

How the results depend on the processing

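Of 32 fold changes of members in single strains that were called with or without NZO 8, all 32 kept direction and call under RLE size factors, which moved the median of all genes by at most 0.0127 on the log2 scale, 31 under robust estimation, 30 without a filter, 29 under DESeq2, 25 with Xist as a covariate, 23 with the replicate block and 18 each under limma on the deposited log2 values and with Xist and without NZO 8. Orm3 in WSB, Orm1 in PWK, Saa4 in Cast and Hpx in PWK and NOD kept direction and call under each of these and each leave-out.

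The number of members called in AJ was 1 with no filter, robust estimation or limma, 0 with Xist and 4 under DESeq2. In strain-129 it was 2 with Xist or under DESeq2 and 3 with Xist and without NZO 8. In NZO it was 3 under limma and 0 with Xist and without NZO 8, in Cast 3 under limma, in NOD 2 under DESeq2 and in WSB 5 with Xist and without NZO 8. Leaving out 1 library gave 0 to 2 in AJ, 1 in B6 and NOD, 3 to 9 in Cast, 0 to 8 in NZO, 3 to 6 in PWK, 3 to 4 in WSB, 0 to 3 in strain-129, 10 among strains, and 14397 to 14593 genes among strains. Reversed fold changes were those of Saa3 (-0.084), Orm1 (-0.0027) and Lcn2 (-0.72) in Cast under limma, of Saa2 (-0.20), Hp (-0.28) and Lcn2 (-0.60) in NZO with Xist and without NZO 8, and, when 1 library was left out, of Saa2 (-0.15 without NZO 8, range to 3.865), Hp (-0.30 without NZO 8, to 0.71) and Lcn2 (-0.71 without NZO 8, to 3.24) in NZO and of Lcn2 (-1.30 without Cast 6, to 1.60) in Cast. The cause was not tested.

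The replicate numbers were not taken to pair the libraries, since the labels give them no shared meaning and not every pair correlated: deviations of 181 same-numbered pairs had a median r of 0.201 and a lowest of -0.429, pairs of other numbers had a median r of -0.0699, and 7 of 60 libraries were most like one of their own number. With the replicate block, members called were 2 in strain-129, 1 in AJ and 3 in NZO. The numbers went with Xist in strain-129, AJ, B6, Cast, NOD and NZO. There libraries numbered 1 to 4 were of high Xist and those numbered 5 or above of low Xist. PWK and WSB departed from this, for example with high Xist in PWK 6 and WSB 9. The part of Xist in these correlations and in the block was not tested.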
